A study of Rattus norvegicus with 16 samples.

Results

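Endothelial cells line every blood vessel, and 8 genes that mark them are described here in the mammary gland of young female rats: Pecam1, Cdh5, Kdr, Flt1, Tek, Tie1, Emcn and Vwf. The genes were chosen by name. Where a symbol had several probe sets, the one with the highest mean over the 16 arrays stood for it. Of the 8 genes, 5 (Cdh5, Flt1, Tek, Tie1 and Emcn) were measured under their own symbol, each by a single probe set, among 14324 named genes in all. Pecam1, Kdr and Vwf were not analysed here. All 5 lay above the filter on dim values that left 11796 genes for testing. All 14 markers of luminal mammary epithelium on a list of their own, among them Krt8, Elf5 and Prlr, also lay above the filter.

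The glands came from female Wistar Han rats killed at postnatal day 50 (PND50) or postnatal day 35 (PND35). Their dams received genistein, vinclozolin or both (the mixture) by daily gavage, starting on gestational day 1 and ending at weaning on postnatal day 21, at a daily dose of 1 mg of each compound per kg of body weight, or were untreated controls. Genistein is a soy isoflavone that can activate estrogen receptors, and vinclozolin is a fungicide whose metabolites block the androgen receptor. All animals ate a purified diet free of phytoestrogens. The groups at PND50 were therefore genistein, vinclozolin, mixture and control, and the same 4 groups existed at PND35. Each of these 8 groups had 2 arrays, and each array held RNA pooled from 5 animals, 1 female being taken per litter. Dams numbered 15 per group. Litter was not part of the fit, so any litters shared between the ages were not accounted for. The offspring themselves were not dosed after weaning. The spread between pools, and not between animals, therefore sets every error and p-value below. In whole-gland RNA, fewer endothelial cells and less RNA per endothelial cell cannot be told apart.

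The vessels of the mammary gland lie in its fat pad and around its ducts, and they grow as the ducts branch during puberty. Growth of new capillaries is driven largely by VEGF-A, which signals through the receptor encoded by Kdr and is held back by the receptor encoded by Flt1. A second receptor system, Tek (also called Tie2) with its ligands angiopoietin 1 and angiopoietin 2, governs whether vessels stay quiet or are remodelled, and Tie1 is a receptor of the same family that modulates Tek. Cdh5 encodes VE-cadherin, which holds neighbouring endothelial cells together at their junctions. Emcn encodes endomucin, a sialomucin of capillary and venous endothelium. In mice and humans, many genes of endothelial cells are switched on by ETS transcription factors such as Erg and Fli1, which bind a core GGAA sequence.

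Because ETS factors are known regulators of endothelial genes, the promoters of the measured genes were searched for the ETS core GGAAG on both strands, in the 250 bases before the annotated start. The RefSeq promoter table of the assembly GRCr8 held 3 of the 5 genes, Flt1, Tie1 and Emcn. Bases are printed 5′ to 3′ on the strand of the gene, with GGAAG and its reverse complement CTTCC in capitals. The whole Flt1 window lies inside the annotated span of the gene, which has more than 1 annotated transcript, and a stretch of 30 bases with 2 matches is shown from it, at chr12:12333329-12333358 on the plus strand. For Tie1 and Emcn only the bases of the window before the annotated span are shown. These are chr5:137305048-137305231 on the minus strand for Tie1 and chr2:228564289-228564444 on the plus strand for Emcn.
Flt1: ggggtaGGAAGtgggctggGGAAGgttata
Tie1: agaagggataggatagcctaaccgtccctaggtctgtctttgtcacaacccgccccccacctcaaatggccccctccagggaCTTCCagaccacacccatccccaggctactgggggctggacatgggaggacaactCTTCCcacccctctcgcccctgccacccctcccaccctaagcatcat
Emcn: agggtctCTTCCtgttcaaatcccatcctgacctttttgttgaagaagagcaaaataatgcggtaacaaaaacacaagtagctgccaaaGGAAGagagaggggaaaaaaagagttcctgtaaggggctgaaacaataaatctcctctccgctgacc
The whole windows held 3 matches for Flt1, 3 for Tie1 and 2 for Emcn. The motif is common, being present in 63.3% of 33469 promoter windows of the same length. Of the other motifs searched on both strands, the palindrome TGACGTCA (a cyclic AMP response element, in 1.59% of windows) and TATAAA (in 12.9%) were each found once, in the Flt1 window. The hypoxia response core ACGTG, in 16.6% of windows, was in none of the 3. The share of G and C was 73.2% in the Flt1 window, 61.6% in the Tie1 window and 44.4% in the Emcn window, against a median of 51.2% over all windows. A match of letters is a description and not a bound site.

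Values are given as deposited and were read as log2 intensities, so a difference of 1 is a 2-fold difference. Brightness differs from probe set to probe set, and a value can be set against the same gene in other pools but not against another gene. Array medians lay between 7.05 and 7.14, and the 2 pools of a group correlated at 0.989 to 0.997 over all 27342 probe sets. The standard error of a difference between 2 groups had a median of 0.09 over the tested genes. That of the difference between the ages, averaged over the 4 treatments, had a median of 0.05.

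Between the ages, the measured endothelial genes did not all move in 1 direction. Cdh5 and Flt1 were higher at PND50 than at PND35, Tek was lower, and Tie1 and Emcn did not pass the test (limma, adjusted p over all 11796 genes). The differences were small, at 1.12-fold for both genes that rose and 0.848-fold for Tek. The background was high: 44.6% of all tested genes passed in this comparison, 19.4% higher and 25.2% lower, against 3 of the 5 endothelial genes. The median log2 fold change was 0.09 over the 5 genes and -0.01 over all tested genes. For none of the 5 did the pools of the 2 ages separate fully, which was the case for 5.76% of all tested genes. That share does not apply to the comparisons of single groups below. With 2 pools against 2, full separation arises readily by chance, and its share over all genes is not given.

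Cdh5, the VE-cadherin gene, read 10.35 and 10.31 in the genistein pools at PND50, 10.07 and 10.08 in the vinclozolin pools, 10.28 and 10.31 in the mixture pools, and 10.24 and 10.18 in the control pools. At PND35, Cdh5 read 10.11 and 10.03 with genistein, 10.19 and 9.88 with vinclozolin, 9.97 and 10.02 with the mixture, and 10.13 and 10.23 in control. Genistein and mixture pools lay above both control pools at PND50 and below both at PND35, while the control pools of the ages overlapped. Over all pools Cdh5 averaged 10.23 ± 0.11 at PND50 and 10.07 ± 0.12 at PND35 (SD, n = 8 pools each). The log2 fold change was 0.16 (SE 0.04, 95% interval 0.06 to 0.25), with an adjusted p of 0.0136 from limma, and Cdh5 was higher at PND50 in 4 of 4 treatments.

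Flt1, the decoy-like VEGF receptor 1, read 9.44 and 9.50 in the genistein pools at PND50, 9.20 and 9.35 in the vinclozolin pools, 9.46 and 9.59 in the mixture pools, and 9.45 and 9.35 in the control pools. At PND35, Flt1 read 9.31 and 9.31 with genistein, 9.23 and 9.10 with vinclozolin, 9.24 and 9.27 with the mixture, and 9.25 and 9.29 in control. In genistein, mixture and control animals both PND50 pools were above both PND35 pools, and only the vinclozolin pools overlapped between the ages. Flt1 averaged 9.42 ± 0.12 at PND50 and 9.25 ± 0.07 at PND35 (SD, n = 8 pools each). The log2 fold change was 0.17 (SE 0.04, adjusted p = 0.00455, limma), again higher in 4 of 4 treatments.

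Tek, the angiopoietin receptor, read 9.27 and 9.38 in the genistein pools at PND50, 8.98 and 8.88 in the vinclozolin pools, 9.25 and 9.17 in the mixture pools, and 9.19 and 9.00 in the control pools. At PND35, Tek read 9.22 and 9.62 with genistein, 9.23 and 9.02 with vinclozolin, 9.50 and 9.66 with the mixture, and 9.26 and 9.51 in control. The lowest pool of each age was a vinclozolin pool, and only the genistein pools overlapped between the ages. Tek averaged 9.14 ± 0.17 at PND50 and 9.38 ± 0.23 at PND35 (SD, n = 8 pools each). The log2 fold change was -0.24 (SE 0.07, adjusted p = 0.0135, limma), lower at PND50 in 4 of 4 treatments. Of the 5 genes, Tek also varied most from pool to pool, with a within-group SD of 0.15, against a median of 0.10 over all tested genes.

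Tie1, the partner receptor of Tek, read 9.44 and 9.49 in the genistein pools at PND50, 9.28 and 9.41 in the vinclozolin pools, 9.27 and 9.22 in the mixture pools, and 9.45 and 9.35 in the control pools. At PND35, Tie1 read 9.21 and 9.39 with genistein, 9.20 and 9.13 with vinclozolin, 9.19 and 9.38 with the mixture, and 9.30 and 9.39 in control. Pools of the 2 ages overlapped in mixture and control animals and not in genistein or vinclozolin animals. Tie1 averaged 9.37 ± 0.10 at PND50 and 9.27 ± 0.10 at PND35 (SD, n = 8 pools each). The log2 fold change was 0.09 (SE 0.04, adjusted p = 0.101, limma). Tie1 was higher at PND50 in 3 of 4 treatments, the mixture being the exception at -0.04.

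Emcn, the endomucin gene, read 9.82 and 9.77 in the genistein pools at PND50, 9.57 and 9.48 in the vinclozolin pools, 9.76 and 9.68 in the mixture pools, and 9.88 and 9.73 in the control pools. At PND35, Emcn read 9.83 and 9.58 with genistein, 9.82 and 9.49 with vinclozolin, 9.57 and 9.61 with the mixture, and 9.69 and 9.67 in control. The 2 pools lay farther apart in the genistein and vinclozolin groups of PND35 than in any other group. Emcn averaged 9.71 ± 0.13 at PND50 and 9.66 ± 0.12 at PND35 (SD, n = 8 pools each), and the log2 fold change was 0.05 (SE 0.05, 0.442 for the adjusted p of limma).

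**Figure D1:**
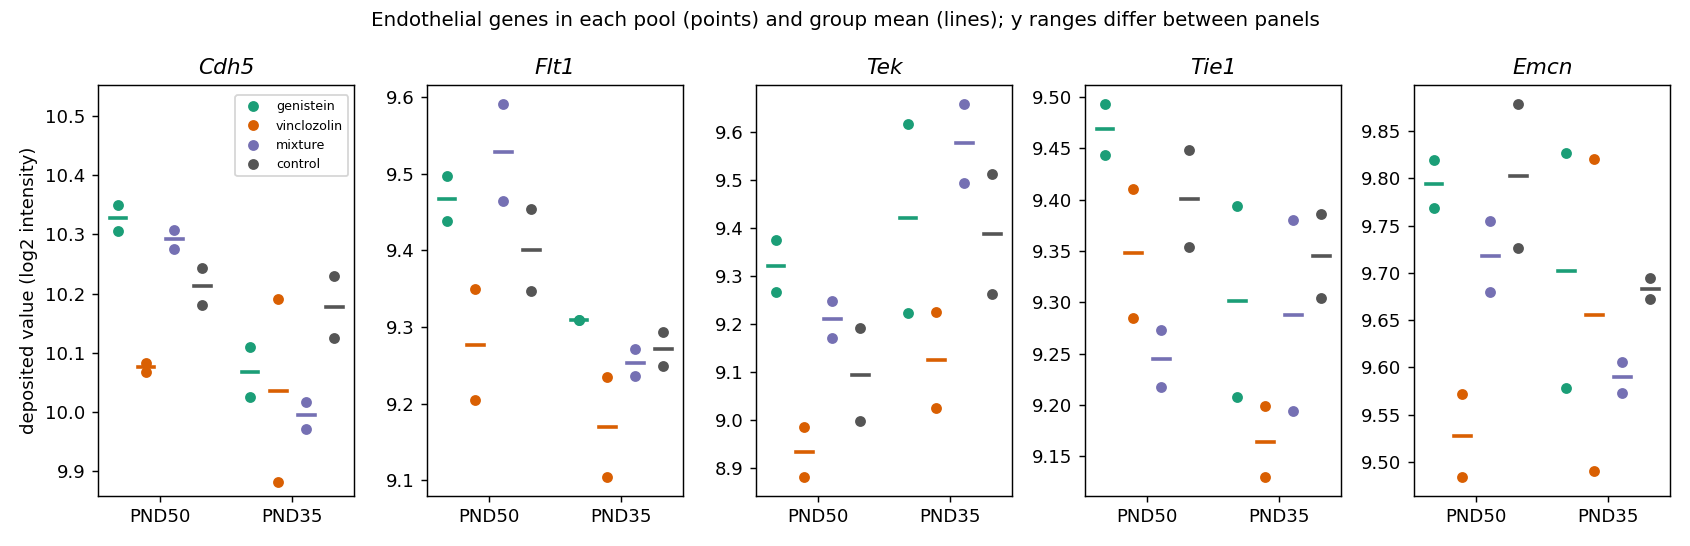
Deposited values (log2 intensity, vertical axis, with its own range in each panel) of the 5 endothelial genes in each pool, PND50 on the left and PND35 on the right of each panel. Points are pools and lines are means of the 2 pools of a treatment. The Flt1 points sit mostly higher at PND50 and the Tek points mostly lower, with overlap between the ages for every gene.

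Leaving out single pools ended none of the calls for Cdh5, Flt1 and Tek, but other settings did. Without the 4 mixture pools, a setting chosen after seeing the data, the log2 fold changes were 0.11 for Cdh5 (adjusted p = 0.182), 0.13 for Flt1 (adjusted p = 0.0692) and -0.19 for Tek (adjusted p = 0.119). With the mean of skeletal muscle markers as a covariate, they were 0.13 (adjusted p = 0.426), 0.11 (adjusted p = 0.381) and -0.07 (adjusted p = 0.78). The number of all genes called was 2165 in the first setting and 75 in the second, against 5261 with neither change. With the mean of adipocyte markers as a covariate, Tek stood at -0.10 (adjusted p = 0.386), while Cdh5 stood at 0.26 (adjusted p = 0.00823) and Flt1 at 0.21 (adjusted p = 0.0188).

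Those markers differed between the ages themselves. Of 11 skeletal muscle genes tested, 9 were lower at PND50 and none higher, and their mean relative to the average over all pools ranged from -1.73 to 1.15 at PND50 and from -0.12 to 2.13 at PND35. Of 13 adipocyte genes, 5 were lower and none higher, with a mean of -0.28 to 0.08 at PND50 and -0.22 to 0.32 at PND35. All 5 erythroid genes were lower at PND50, at -0.76 to -0.25 against 0.14 to 0.95 at PND35. Of 14 luminal epithelial genes, 9 were higher and none lower, at 0.02 to 0.23 at PND50 and -0.33 to 0.22 at PND35. Of 12 macrophage genes 4 were higher and 1 lower, of 11 fibroblast and matrix genes 2 were higher and 5 lower, and of 7 hair and skin genes 5 were lower. The hair and skin genes were high in the vinclozolin pools of PND35 only, with means of 2.81 and 2.38, against -0.53 to -0.24 in the other 14 pools. Within treatments, 6 of the 7 were lower at PND50 with vinclozolin, 2 were higher with the mixture, and none passed with genistein or in control. No marker of these lists is at 0, since the deposited values hold no zeros. Since the muscle and adipocyte markers differed with age, the fits with them as covariates cannot fully tell tissue from age. The part of these tissues in the endothelial differences was not tested.

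Within single treatments, 2 endothelial genes passed in the mixture and none in the others. In mixture animals Cdh5 was higher at PND50 by 0.30 on the log2 scale (SE 0.09, adjusted p = 0.0247, limma) and Flt1 by 0.27 (SE 0.08, adjusted p = 0.0178), in a comparison in which 32.7% of all genes passed, 14.4% higher and 18.3% lower. Tek was at -0.37 (adjusted p = 0.0524) in the same comparison. In this comparison 10 of 11 skeletal muscle genes were lower (median -2.86), 9 of 14 luminal genes were higher (median 0.44) and 4 of 13 adipocyte genes were lower (median -0.28), and their part in the differences of Cdh5 and Flt1 was not tested. Leaving out any 1 of the 4 mixture pools ended at least 1 of the calls for Cdh5 and Flt1. In genistein animals the Cdh5 difference was 0.26 (SE 0.09, adjusted p = 0.116), with 2.77% of all genes passing. The background was 2.78% with vinclozolin and 0.865% in control, where the Cdh5 differences were 0.04 and 0.04. Whether the age difference of Cdh5 depended on exposure was tested as an interaction, which gave 0.26 for the mixture against control (adjusted p = 0.427) and 0.22 for genistein against control (adjusted p = 0.719).

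**Figure D2:**
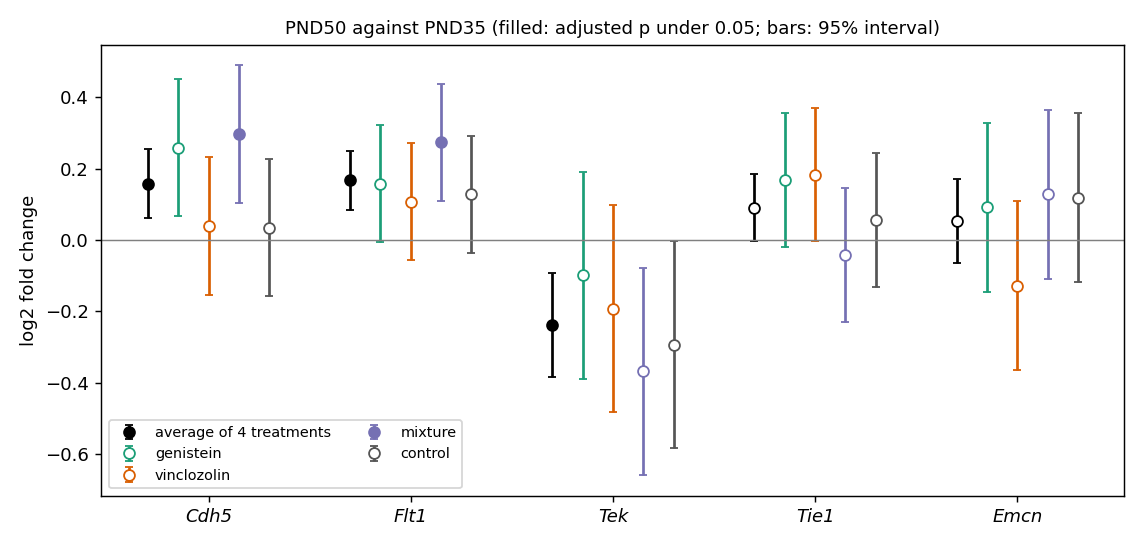
Log2 fold change of PND50 against PND35 (vertical axis) for the 5 endothelial genes, as the average of 4 treatments (black) and within each treatment (colours), with 95% intervals from limma. Filled points passed an adjusted p of 0.05: Cdh5, Flt1 and Tek in the average, and Cdh5 and Flt1 in the mixture.

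Of the receptors of the angiopoietin system, Tek was lower at PND50 and Tie1 did not pass. Their difference within a pool was looked at after their values had been seen, and it is therefore given without a test. Since the 2 probe sets differ in brightness, only its change between pools can be read. Tek minus Tie1 was -0.23 ± 0.17 at PND50 and 0.10 ± 0.15 at PND35 (SD, n = 8 pools each), a difference of -0.33. At PND50 it lay at -0.18 and -0.12 with genistein, -0.30 and -0.53 with vinclozolin, -0.02 and -0.05 with the mixture, and -0.26 and -0.36 in control. At PND35 it lay at 0.01 and 0.22 with genistein, 0.03 and -0.11 with vinclozolin, 0.30 and 0.28 with the mixture, and -0.04 and 0.13 in control. The PND50 pools of each treatment were below its PND35 pools in 4 of 4 treatments, and at both ages the mixture pools were the highest and a vinclozolin pool the lowest. The share of other gene pairs that separate in this way is not given, so the separation of this chosen pair cannot be weighed.

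**Figure D3:**
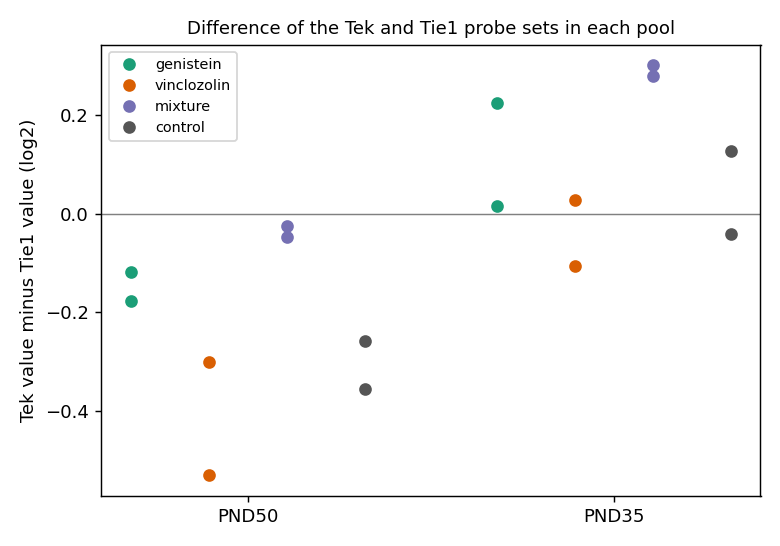
Tek value minus Tie1 value (log2, vertical axis) in each pool, PND50 left and PND35 right, coloured by treatment. The PND50 pools range from -0.53 to -0.02 and the PND35 pools from -0.11 to 0.30.

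The second question of the design is whether exposure before weaning altered the genes later. None of the 5 endothelial genes passed in any of the 6 comparisons of an exposure with control. At PND35 the background was 0% of all genes with genistein, 1.34% with vinclozolin and 0% with the mixture. At PND50 it was 0% with genistein, 0% with vinclozolin and 0.00848% with the mixture. At an unadjusted p under 0.05, all genes numbered 1311, 1716 and 1799 at PND35 with genistein, vinclozolin and the mixture, and 307, 713 and 874 at PND50. Among the endothelial genes only Emcn with vinclozolin at PND50 was below that level. The 3 exposures of an age were compared with the same control pools, so their differences are not independent. With 2 pools a group, the 95% interval of a difference reached 0.16 to either side for Flt1 and 0.29 for Tek, so smaller differences could not be told from 0 even before adjustment.

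With vinclozolin, all 5 genes lay below control at both ages, with median log2 fold changes of -0.14 at PND50 and -0.14 at PND35 against -0.02 and -0.02 over all tested genes. At PND50 the differences were -0.14 for Cdh5, -0.12 for Flt1, -0.16 for Tek, -0.05 for Tie1 and -0.27 for Emcn. Emcn (SE 0.11, 95% interval -0.51 to -0.04, adjusted p = 0.8, limma) had an unadjusted p of 0.0262, and both of its vinclozolin pools were below both control pools. At PND35 they were -0.14 for Cdh5, -0.10 for Flt1, -0.26 for Tek, -0.18 for Tie1 and -0.03 for Emcn. The vinclozolin pools of PND35 differed from each other, and the negative values of Cdh5 and Emcn at that age rested on the second one. Without the second pool, Cdh5 stood at 0.01 (adjusted p = 0.985, limma) and Emcn at 0.14 (adjusted p = 0.834), both above control. Without the first pool, Cdh5 stood at -0.30 (adjusted p = 0.0451), the only one of the settings run in which an endothelial gene passed against control. At PND50, Tie1 stood at 0.01 without the first vinclozolin pool. Markers of other tissues also differed between these pools and control at PND35. Of 7 hair and skin genes 6 were higher with vinclozolin (median 3.30), 12 of 12 macrophage genes lay below control with 2 past the test (median -0.43), and 11 of 11 fibroblast and matrix genes lay below control with 1 past it (median -0.19). Their part in the endothelial values was not tested. The list of 16 other endothelial genes had 13 below control at PND50 and 14 at PND35, with none past the test. Its medians were -0.07 and -0.17. At PND35 the mean of this list, relative to its average over all pools, also differed between the vinclozolin pools. It was -0.01 in the first and -0.26 in the second, against -0.02 and 0.06 in control. Genes read on the same arrays are not independent, and the share of all genes below control is not given.

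With genistein, 4 of the 5 genes lay above control at PND50 and 3 at PND35. The medians were 0.07 at PND50 and 0.02 at PND35, and the range at PND50 was -0.01 for Emcn to 0.23 for Tek. With the mixture, 3 genes lay above control at PND50 and 1, Tek at 0.19, at PND35, with medians of 0.08 and -0.06. Cdh5 showed the lowest value of the mixture at PND35 (-0.18, SE 0.09, adjusted p = 0.352, limma) but 0.08 at PND50. No exposure effect on the 5 genes differed between PND50 and PND35 past the test, which 0.381% of all genes passed for vinclozolin and 0% for genistein and for the mixture.

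**Figure D4:**
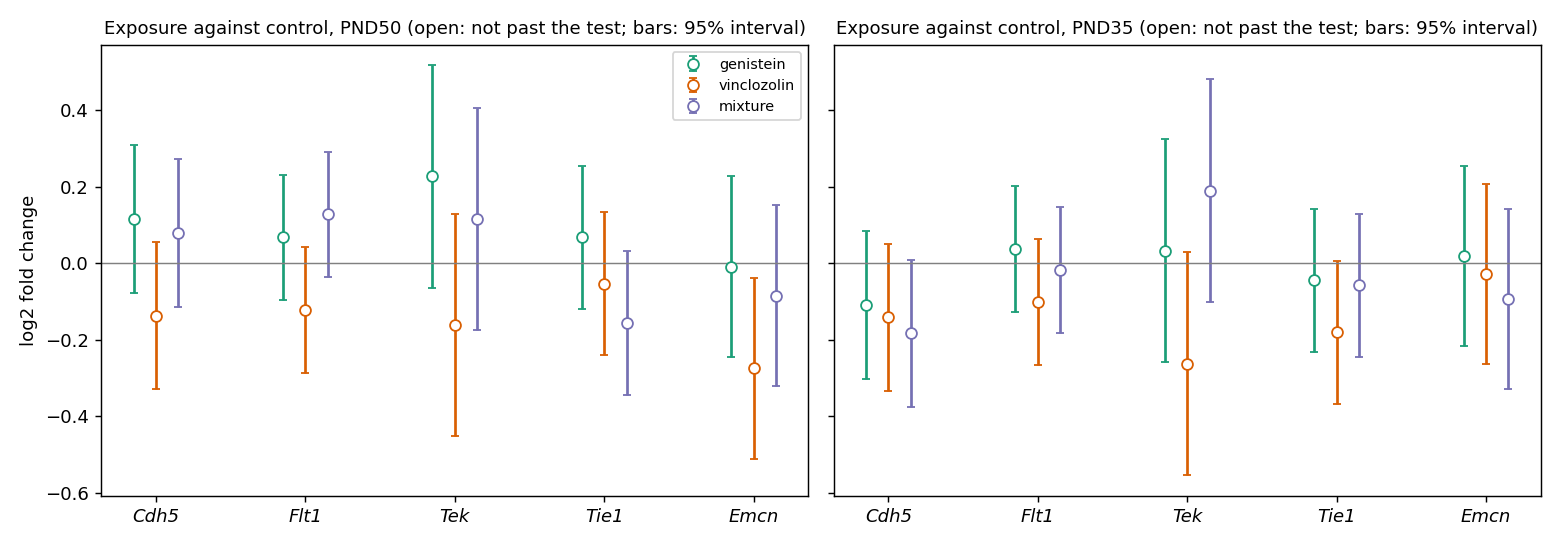
Log2 fold change of each exposure against control (vertical axis) for the 5 endothelial genes at PND50 (left) and PND35 (right), with 95% intervals from limma. All points are open because none passed the test, and the vinclozolin points lie below 0 for all 5 genes at both ages.

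The mixture was also set against each compound alone, and none of the 5 genes passed. The background was 0% at PND35 and 0.0254% at PND50 against genistein, and 2.61% at PND35 and 0.0339% at PND50 against vinclozolin. The differences with an unadjusted p under 0.05 were mostly against vinclozolin. Tek in the mixture pools at PND35 exceeded Tek in the vinclozolin pools by 0.45 (SE 0.13, adjusted p = 0.087, limma). At PND50, Flt1 was 0.25 above its vinclozolin value in the mixture (SE 0.08, adjusted p = 0.255), and Cdh5 was 0.22 above it (SE 0.09, adjusted p = 0.383). Against genistein, Tie1 in the mixture stood at -0.22 at PND50 (SE 0.09, adjusted p = 0.501).

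Ordered by group mean, Cdh5 and Flt1 had the genistein and mixture groups of PND50 on top, while Tek had the mixture and genistein groups of PND35 on top. A vinclozolin group was last for Flt1, Tek, Tie1 and Emcn, and the mixture at PND35 was last for Cdh5. In these orders neighbouring groups were never apart by more than the 95% interval of a difference between 2 groups. The widest gap between neighbours was 0.16, between control and vinclozolin at PND50 for Tek, against an interval of 0.29 to either side. Sorting keeps the gaps between neighbours small, so they do not speak for groups farther apart. For Tek, the mixture and vinclozolin groups of PND35 were 0.45 apart, beyond that interval (adjusted p = 0.087, limma).

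The other genes of blood vessels were described from 10 lists. Of their 93 genes 77 were tested, and between the ages 13 were higher and 13 lower at PND50, which is 33.8% against 44.6% of all tested genes.

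Among 16 other genes of endothelial cells, 2 were higher and 3 lower, with a median of -0.02. Podxl, which encodes podocalyxin, a sialomucin of vessel and epithelial surfaces, was the largest at 0.66 (SE 0.05, adjusted p = 1.23e-05, limma), with 10.73 to 11.36 at PND50 and 10.10 to 10.73 at PND35. Ramp2, a subunit of the adrenomedullin receptor, was higher by 0.14 (SE 0.05, adjusted p = 0.0365). Gpihbp1, which carries lipoprotein lipase to the capillary wall, stood at -0.29 (SE 0.07, adjusted p = 0.00592). Mcam, an adhesion molecule, stood at -0.13 (adjusted p = 0.0399), and Nos3, the endothelial nitric oxide synthase, at -0.13 (adjusted p = 0.0407). The junction genes Cldn5 (-0.03, adjusted p = 0.666) and Esam (-0.10, adjusted p = 0.209), and Egfl7 (-0.14, adjusted p = 0.0552), did not pass.

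Of 8 genes of the VEGF system, 1 was higher and 1 lower. Flt4, the VEGF receptor 3 of lymphatic and sprouting endothelium, was higher by 0.24 (SE 0.05, adjusted p = 0.00244, limma), with 7.82 to 8.05 in the PND50 pools and 7.48 to 7.80 in the PND35 pools, which did not overlap. Nrp1, a coreceptor of VEGF-A, stood at -0.22 (SE 0.05, adjusted p = 0.00445). Vegfa, the main ligand, stood at -0.02 (adjusted p = 0.805). Of 6 genes of angiopoietins, apelin and Esm1, the ligand genes Angpt1 (-0.16, SE 0.04, adjusted p = 0.00854) and Angpt2 (-0.17, SE 0.04, adjusted p = 0.00854) were both lower at PND50, as their receptor gene Tek was. Esm1, a secreted product of sprouting endothelium, was higher by 0.16 (SE 0.05, adjusted p = 0.0193).

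In the Notch list 1 of 8 passed, the ligand gene Jag1 at -0.22 (SE 0.04, adjusted p = 0.00214, limma), while the tip cell ligand gene Dll4 stood at 0.03 (adjusted p = 0.778). Of 7 genes of BMP signalling, 1 was higher and 3 lower. The lower ones were Smad6, an inhibitor and target of the pathway (-0.49, SE 0.05, adjusted p = 9.58e-05), and the target genes Id1 (-0.31, SE 0.06, adjusted p = 0.00276) and Id3 (-0.24, SE 0.07, adjusted p = 0.0145). The receptor gene Bmpr2 was higher by 0.13 (SE 0.03, adjusted p = 0.0101), and the endothelial receptor gene Acvrl1 stood at -0.01 (adjusted p = 0.889). Among 13 transcription factors, Gata2 was higher by 0.10 (adjusted p = 0.0206), and Lmo2 (-0.28, SE 0.05, adjusted p = 0.00082) and Ets1 (-0.13, adjusted p = 0.0498) were lower. The ETS factor Erg stood at -0.01 (adjusted p = 0.878) and Sox18 at -0.02 (adjusted p = 0.864).

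All 4 genes for leukocyte adhesion passed, in the comparison that 44.6% of all tested genes passed. Icam1 was higher by 0.17 (SE 0.03, adjusted p = 0.00143, limma) with no overlap between the pools of the ages, Sele, which encodes E-selectin, by 0.19 (SE 0.06, adjusted p = 0.0208), and Selp, which encodes P-selectin, by 0.16 (SE 0.06, adjusted p = 0.0347). Vcam1 stood at -0.35 (SE 0.06, adjusted p = 0.000675). Of 7 genes of pericytes and vascular smooth muscle, Anpep was higher by 0.16 (SE 0.04, adjusted p = 0.0144), while Pdgfrb (-0.09) and Rgs5 (0.09) did not pass. The lymphatic genes Ccl21 (0.51, SE 0.08, adjusted p = 0.000559), Prox1 (0.37, SE 0.09, adjusted p = 0.00779) and Pdpn (0.18, SE 0.05, adjusted p = 0.0162) were higher, and Lyve1 stood at 0.01. Ccl21, Prox1 and Pdpn are also expressed outside lymphatic vessels. None of 4 platelet genes passed, with Pf4 at -0.01 (adjusted p = 0.874).

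With the muscle covariate, only Podxl of these 26 calls stayed past the threshold in the same direction. Without the 4 mixture pools 11 did, and with the adipocyte covariate 10. Leaving out 1 pool at a time kept 21 to 25 of the 26. Nos3, Ramp2, Mcam, Ets1, Selp and Sele were each lost without 1 pool or another, and most of them in most settings. Over all settings run, the call was lost in 17 of 28 for Nos3, 17 of 28 for Mcam and 15 of 28 for Ramp2. For Ets1 it was lost in 17 of 28 and reversed in 1 more. For Selp it was lost in 16 of 27 and for Sele in 6 of 27.

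**Figure D5:**
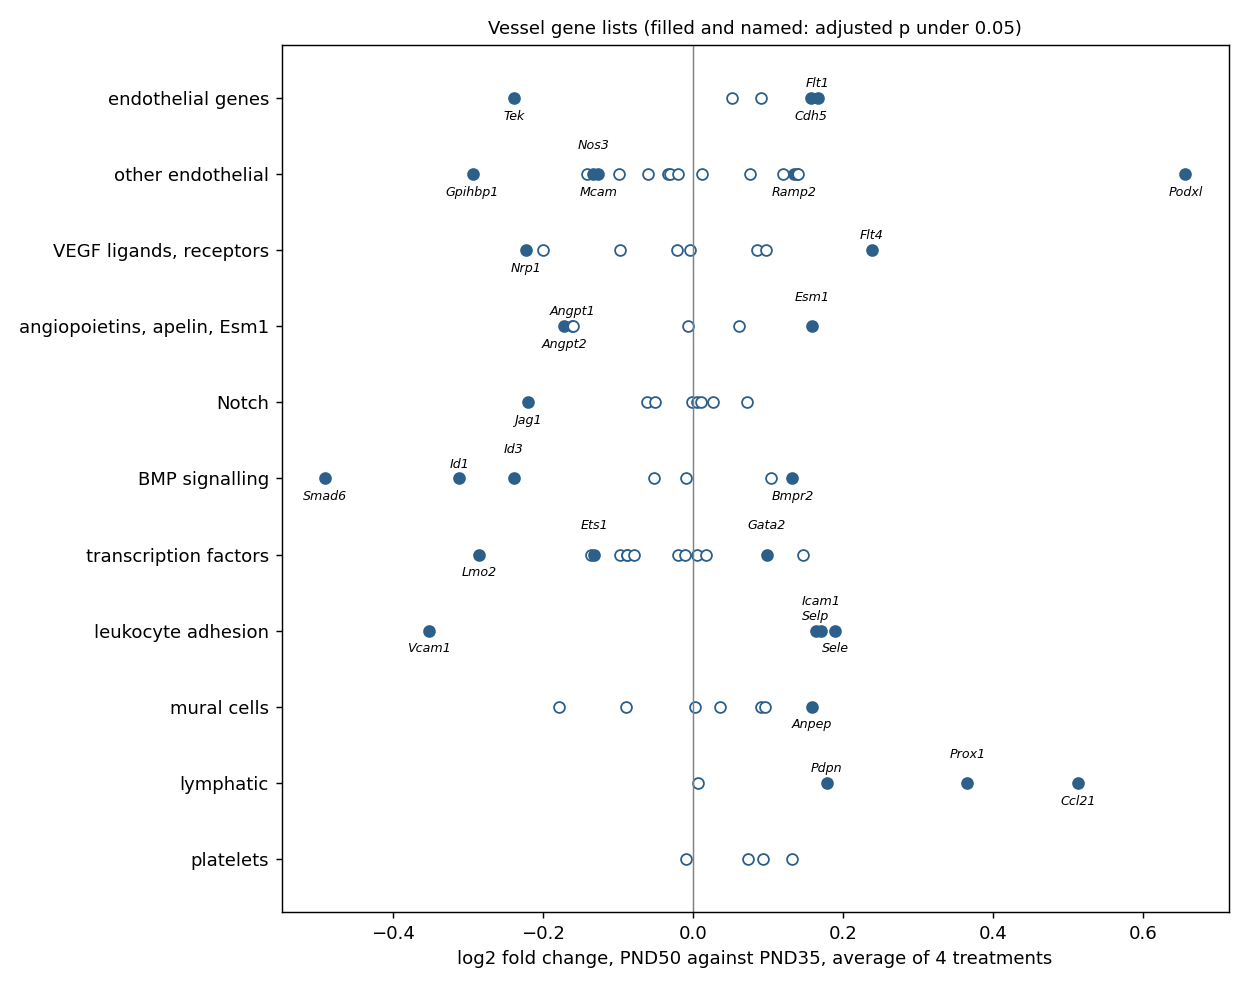
Log2 fold change of PND50 against PND35, averaged over 4 treatments (horizontal axis), for the 5 endothelial genes in the top row and for 10 lists of vessel genes below. Each point is a gene, and filled, named points passed an adjusted p of 0.05. Most lists hold points on both sides of 0, with Podxl at 0.66 farthest to the right and Smad6 at -0.49 farthest to the left.

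Against control, 2 genes of these lists passed, both lower with vinclozolin at PND35, as 0.373% of all genes were. Vcam1 stood at -0.52 (adjusted p = 0.049, limma) and Lyve1, a receptor for hyaluronan on lymphatic vessels and some macrophages, at -0.56 (adjusted p = 0.0414). In the same comparison 6 of 7 hair and skin genes were higher and 12 of 12 macrophage genes lay below control, and their part in these 2 calls was not tested. Fitted on these 2 groups alone, neither passed (adjusted p = 0.446 and 0.384), and leaving out single pools gave adjusted p up to 0.297 and 0.303.

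The genes whose pattern was most like that of the endothelial genes were taken from the Pearson correlation with the mean of the 5 genes over the 16 pools, which share their animals and arrays. This is a description, without a test. The first 10 were Slc22a18 (r = 0.93), Ablim1 (0.92), Serpinf1, Klra2, Adamts2, Palm, Entpd2, S1pr1 (0.86), Cd40 and Ddr2, and S1pr1, the sphingosine 1-phosphate receptor of vessel walls, was the only one on a vessel list. After each group mean had been subtracted, the first 10 were Ctss, Klf15, St3gal6, Ebf3, Arhgap45, Gstk1, Vtn, F13a1, Slc49a4 and Icam2 (r = 0.92), an adhesion molecule of endothelial junctions. Of the 16 other endothelial genes, 5 were among the 100 most alike over the 16 pools (S1pr1, Adgrl4, Ramp2, Icam2 and Robo4), with a median r of 0.54 over the list and 0.04 over all tested genes. Among the 5 genes themselves, Cdh5 and Flt1 (r = 0.83) and Cdh5 and Emcn (0.74) varied together. The r of Tek was low with Cdh5 (-0.04), Flt1 (0.01), Emcn (0.07) and Tie1 (0.21), and that of Tie1 and Emcn was low as well (0.22). With group means subtracted, the r of Tek and Tie1 was 0.78.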

How the data were processed

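RNA of individual mammary glands was extracted with Trizol, pooled from 5 animals per array and biotin-labelled for Affymetrix arrays, per the labels' protocols. Groups and replicate numbers came from the sample titles, whose J35 and J50 were read as postnatal days. The values deposited by the authors, 1 per probe set, were read as log2 from their range of 2.20 to 13.9 and the sources used here do not give the background correction, normalization or log base. The platform annotation listed 15420 of 27342 probe sets, 15097 with 1 symbol, of which 15067 matched RefSeq gene identifiers of GRCr8. Probe sets without a symbol (11922) or with several (323) were left out. Genes averaging below 5.66, the 25th percentile over probe sets, were dropped. limma 3.58.1 in R 4.3.3 modelled the 8 group means with all 16 arrays, leaving 8 residual degrees of freedom, for 18 comparisons, two-sided, with Benjamini-Hochberg adjustment over 11796 genes and a threshold of 0.05. The fit was checked on simulated data. The number of arrays limits the precision. Genes named were all members, up to 4 passing genes of each vessel list in the age average, the 10 genes most alike and a set panel. Of the panel, Eng and Itga2b were not analysed here. Nos3 was named beyond the limit of 4, so every passing gene of the vessel lists in the age average is given. Vcam1 and Lyve1 with vinclozolin, and Tek minus Tie1, were added after their values were seen. The members, lists and tests were chosen with earlier results of these data known. Figures used matplotlib 3.10.9.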

Additional observations from a re-analysis of the deposited data

Results flagged for a closer look

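The second vinclozolin pool at PND35 stood apart from the other 7 pools of that age in Flt1. It read 9.1, the nearest pool read 9.23, and this gap was 0.634 of the whole range of the PND35 pools, above the critical value of 0.526 for 8 samples. It was the only one of 10 sets of 8 pools (5 genes at 2 ages) to exceed that value. Chance gives about 1 in 20 for each single set, but the 10 sets share pools and are not independent. The same pool was also the lowest of PND35 in several list means, given relative to the average over all pools. It stood at -0.22 for the 5 genes, -0.26 for the other endothelial genes, -0.33 for macrophage genes and -0.22 for fibroblast and matrix genes. It was not the lowest for the lymphatic, platelet, luminal, skeletal muscle or hair and skin lists. The cause was not tested.

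Cdh5 lay on opposite sides of control at the 2 ages with 2 of the exposures, though none of these differences from control passed the test. Both genistein pools and both mixture pools were above both control pools at PND50 and below both at PND35. With 2 pools against 2, such separation arises readily by chance, and its share over all genes is not given. The exposure effect at PND50 minus that at PND35 was 0.224 for genistein (adjusted p = 0.719, limma) and 0.262 for the mixture (adjusted p = 0.427), so neither difference passed its test. The 2 values share the control pools.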

How the results depend on the processing

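PND50 against PND35, averaged over treatments, gave 2 endothelial genes higher and 1 lower. Both counts were 0 with the muscle score as a covariate and 0 without the 4 mixture pools (added after seeing the data). The count lower was also 0 with quantile normalization (Tek -0.18, adjusted p = 0.0509, limma) and 0 with the adipocyte covariate. With quantile normalization Tie1 passed (0.15, adjusted p = 0.0201). The causes were not tested. Leaving out each pool in turn kept the counts at 2 and 1. All genes called numbered 5261 as reported, 75 with the muscle covariate, 2772 with the adipocyte covariate and 2165 without the mixture pools. Of the vessel genes, Ets1 reversed to 0.022 with the muscle covariate (adjusted p = 0.903). Within the mixture, leaving out single pools gave 0 to 3 endothelial calls instead of 2, and 1596 to 4174 calls of all genes instead of 3852. In the mixture Tek passed in some settings, such as array weights (adjusted p = 0.03). Within genistein, Cdh5 became 1 call without both vinclozolin PND35 pools (adjusted p = 0.0499); leaving out single pools gave 0 to 1 calls there and 0 to 1 for vinclozolin against control at PND35. Deviations of pools with the same replicate number correlated at -0.37 to 0.30 over 28 pairs of groups (median 0.04), with 8 over 0.1. The replicate numbers thus showed no pairing common to all groups, and pairing between some of the groups was not tested. With the replicate block no endothelial call changed (Cdh5 adjusted p = 0.0155, Flt1 0.00617, Tek 0.0166). With quantile normalization 49.4% of all called genes were higher and with median centring 37.8%, against 43.5% as deposited.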
